A study of Mus musculus with 5 samples.

Results

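The genes of the muscle acetylcholine receptor and of the neuromuscular junction were examined in B16F10, a pigmented mouse melanoma cell line, by RNA sequencing. They are 10 of the 54699 genes in the deposited table, chosen by symbol: the receptor subunits Chrna1, Chrnb1, Chrnd, Chrng and Chrne, the synaptic scaffold and agrin signalling genes Musk, Rapsn, Dok7 and Lrp4, and Colq of the synaptic cleft. The 5 libraries were 1 each of cells given lentivirus for Myod1, a transcription factor that starts skeletal muscle development, cells given lentivirus for Pparg, a nuclear receptor of fat cells, and cells given the empty expression vector, all grown for 8 days, and of cells given a short hairpin RNA against Setdb1, a histone H3 lysine methyltransferase, and cells given the empty knockdown vector, both grown for 7 days. Every culture had received a lentivirus and was kept in DMEM with 10% FBS, both controls carry the genotype label wild type, and the promoter of the expression vector and the hairpin sequence are not given in the sources used here. The libraries are called below the Myod1, Pparg, Setdb1, expression control and knockdown control libraries. With 1 library per group no difference has a replicate check, no p-value can be given, and the 2 expression groups share 1 control.

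At the neuromuscular junction a motor nerve releases acetylcholine onto a ligand-gated cation channel packed densely in the muscle membrane. The channel is a pentamer of alpha, beta and delta chains with a gamma chain in fetal and denervated muscle or an epsilon chain in adult synapses. Agrin from the nerve binds Lrp4, which activates the receptor tyrosine kinase MuSK with its adaptor Dok7, and rapsyn, the product of Rapsn, then holds the receptors in clusters. Factors of the MyoD family bind E-boxes in DNA and are known to act on the promoters of several receptor subunit genes, while the epsilon gene is known for an N-box, an element bound by Ets factors at synaptic nuclei.

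Expression is given in FPKM, the fragments per kilobase of gene length per unit of a library size that had been scaled between libraries, and in the whole reads recovered from it. The libraries held between 16214802 and 18300670 reads assigned to genes. Intervals are 95% Wilson intervals from a gene's share of the reads and cover counting error only. A change is log2 of the ratio of FPKM + 1, and a gene is called at a change of at least 2-fold on that scale, if its FPKM was at least 1 in at least 1 library. This held for 12842 genes. It held for 9 of the 10 members, 5 of which (Chrna1, Chrnd, Chrng, Musk and Colq) reached this level in the Myod1 library alone, so those could only be called higher there. Chrne was the member that reached it in no library.

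The targeted genes followed the labels. Myod1 had an FPKM of 260 and Pparg of 44.4 in their own libraries and 0 in the others, and Setdb1 had 0.867 in the Setdb1 library, 9.82 in the knockdown control and between 8.41 and 15.2 in the other 3 libraries.

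The melanocyte markers chosen to check the cell line were found in every library, with reads for 8 of 8 and a summed FPKM between 2125 in the Pparg library and 8830 in the Setdb1 library. The summed FPKM of 12 skeletal muscle markers was 32590 in the Myod1 library and between 10.9 and 33.3 in the others. All 12 were at least 2-fold higher there than in the control, as were 14.0% of all genes compared. Motor neuron markers, among them Chat, the enzyme that makes acetylcholine, had no reads for 8 of 8 genes in the Myod1 library. Among Schwann cell markers, which share neural crest genes with melanocytes, Sox10 had an FPKM between 185 and 298 over the 5 libraries, and S100b was at least 2-fold higher in the Setdb1 library, at a log2 ratio of 1.12, but not against the other control (0.84). In bulk RNA a larger number of cells that carry a transcript and a higher level per cell cannot be told apart.

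The promoters of Chrna1, Chrng and Chrne are shown because Chrne stood apart from the other subunits in its RNA: Chrna1 and Chrng had 5264 and 25710 reads in the Myod1 library, and Chrne, which takes the place of Chrng in the adult receptor, had no reads. The sequences are from RefSeq (GRCm38.p6), on the strand of the gene, and cover bases 250 to 26 before the annotated start, which no exon of GENCODE M21 overlaps. The RefSeq start of Chrng, 87205811, lies inside the longer GENCODE span of the gene. Capitals mark each E-box, CANNTG, and the N-box, CCGGAA or its reverse complement. The positions are chr2:73580364-73580588 on the minus strand for Chrna1, chr1:87205561-87205785 on the plus strand for Chrng and chr11:70619220-70619444 on the minus strand for Chrne.
Chrna1: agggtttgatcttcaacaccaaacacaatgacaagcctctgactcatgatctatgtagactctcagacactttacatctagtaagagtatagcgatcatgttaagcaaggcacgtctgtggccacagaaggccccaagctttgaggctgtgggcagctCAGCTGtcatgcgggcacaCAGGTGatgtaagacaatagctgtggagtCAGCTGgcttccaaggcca
Chrng: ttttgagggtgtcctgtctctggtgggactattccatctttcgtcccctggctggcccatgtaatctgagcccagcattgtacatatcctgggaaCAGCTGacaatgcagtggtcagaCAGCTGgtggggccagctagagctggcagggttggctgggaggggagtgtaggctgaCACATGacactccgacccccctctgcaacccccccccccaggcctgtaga
Chrne: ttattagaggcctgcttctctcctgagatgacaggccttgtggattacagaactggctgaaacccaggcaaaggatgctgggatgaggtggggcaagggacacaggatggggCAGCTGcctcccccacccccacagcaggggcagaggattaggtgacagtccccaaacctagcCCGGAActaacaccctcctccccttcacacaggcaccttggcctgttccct

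The Chrna1 window held 3 E-boxes, of which 2 read CAGCTG and 1 CAGGTG, and they began 92, 73 and 44 bases before the start. The Chrng window held 3 E-boxes, 2 of them CAGCTG, at 155, 132 and 75 bases. The Chrne window held 1 E-box, which also reads CAGCTG, at 138 bases, and an N-box at 76 bases. Among all 32851 RefSeq promoter windows of the same 225 bases, 62.75% held at least 1 E-box and 9.89% at least 3, while CAGCTG was found in 11.6% and 2 or more copies of it in 1.01%. CAGGTG or its complement CACCTG was found in 15.8% and the N-box in 9.80%. Motifs were searched on both strands, and CAGCTG and CAGGTG are also counted as CANNTG. Promoter windows were matched for 6 members. The window of Musk held 3 E-boxes, 1 of them CAGCTG, that of Chrnb1 held 2, and the pair of Dok7 windows held 1 and 0. The Chrnb1 window overlaps the last exon of Fgf11, and the second Dok7 window overlaps the first exon of Dok7. These matches describe letters in a window and are not binding sites, and no binding was measured.

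**Figure D1:**
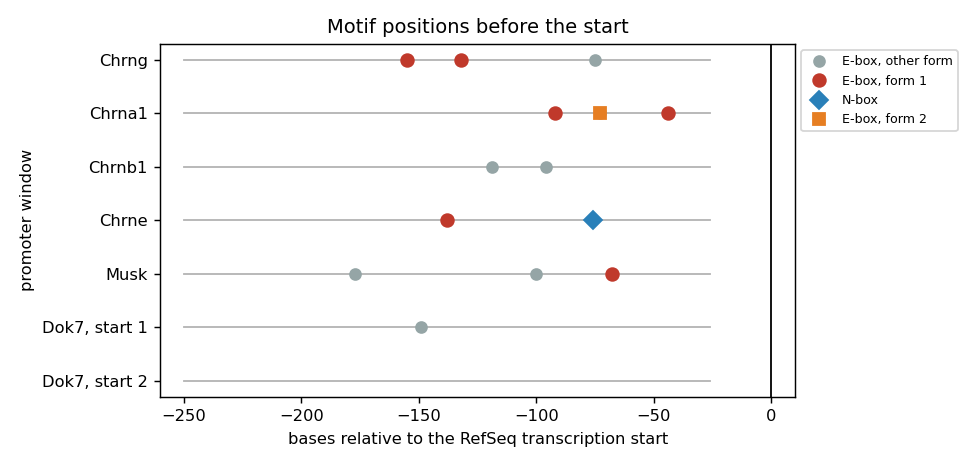
Positions of E-boxes and of the N-box in the 225-base promoter windows of 6 members, in bases relative to the RefSeq start at 0; form 1 is the E-box CAGCTG, form 2 is CAGGTG or CACCTG, and grey circles are other E-boxes. Chrng and Chrna1 hold 2 E-boxes of form 1 each, and Chrne holds 1 together with the N-box.

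Myod1 expression, which the study used to differentiate the melanoma cells, was compared with the empty expression vector. Of the 10 members 8 were at least 2-fold higher and none was lower, where 14.0% of all genes compared were higher and 7.55% lower, 21.6% in all. Scaling the libraries to equal summed FPKM turned that split to 1238 genes higher and 1907 lower, while the same 8 members stayed higher. The 8 were Chrng, Chrnd, Chrna1, Chrnb1, Dok7, Colq, Rapsn and Musk. Lrp4 had a ratio of 1.53, and Chrne had no reads. The median log2 ratio of the 10 members was 4.04, and 6.02 with values under 3 reads set to 3 reads and no pseudocount, while the median of all genes compared was 0.02 on either scale. Both empty vector libraries lay below the Myod1 library in each of the 9 members with reads.

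**Figure D2:**
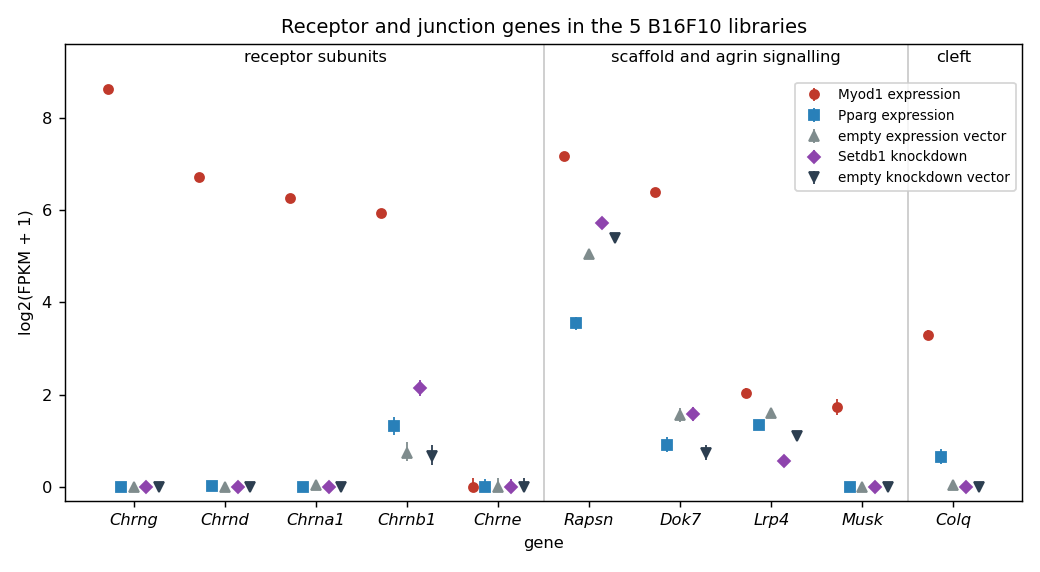
Level of each member as log2(FPKM + 1) in the 5 libraries, 1 symbol per library, with 95% Wilson counting intervals. The Myod1 library is highest for 9 members, from Musk (FPKM 2.32) to Chrng (393), Rapsn has reads in every library, and Chrne is at 0 in all 5.

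Chrng (ENSMUSG00000026253, chromosome 1, 87204657 to 87212694, plus strand), the gamma subunit of the fetal receptor, reached an FPKM of 393 (388 to 398) in the Myod1 library, from 25710 reads, with 0 reads in each of the other 4 libraries. Against 3 reads in the control, the limit that a count of 0 allows, it was at least 8904-fold higher. It ranked 127 among the genes compared by level in the Myod1 library and 19 by its log2 ratio of 8.62.

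Chrnd (ENSMUSG00000026251, chromosome 1, 87190607 to 87200070, plus strand), the delta subunit, had an FPKM of 104 (101 to 107) in the Myod1 library, 0.016 from 1 read in the Pparg library and 0 in the other 3 libraries. It was at least 1862-fold higher than the control, with a log2 ratio of 6.71. Chrnd and Chrng lie 4587 bases apart on the same strand. Of their outer neighbours, Prss56, 2202 bases before Chrnd, had an FPKM of 0.233 from 8 reads in the Myod1 library and 0.028 from 1 read in the control. Eif4e2, 1220 bases after Chrng, had 32.0 and 15.2, a log2 ratio of 1.03 that is itself a call.

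Chrna1 (ENSMUSG00000027107, chromosome 2, 73563215 to 73580338, minus strand) encodes the alpha subunit, which forms most of the acetylcholine binding site. Its FPKM was 76.3 (74.3 to 78.4) in the Myod1 library from 5264 reads, 0.028 from 2 reads in the expression control, and 0 in the other 3 libraries. The ratio to the control was 2734 with an exact counting interval from 757 to 22585, since the control rests on 2 reads. Its log2 ratio was 6.23. The antisense gene Chrna1os, 4512 bases from Chrna1, had an FPKM of 3.36 in the Myod1 library and between 0.873 and 1.93 in the other libraries.

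Chrnb1 (ENSMUSG00000041189, chromosome 11, 69784036 to 69795943, minus strand), the beta subunit, was the one subunit with more than 2 reads outside the Myod1 library. Its FPKM was 60.0 (57.6 to 62.4) in the Myod1 library, 1.48 (1.18 to 1.87) in the Pparg library, 0.677 (0.469 to 0.979) in the expression control, 3.39 (2.91 to 3.96) in the Setdb1 library and 0.591 (0.400 to 0.872) in the knockdown control. The 2 controls overlap in their intervals, and the 3 treated libraries lie above both. In the Myod1 library the ratio to the control was 88.5 (61.1 to 134) and the log2 ratio 5.18. Fgf11, which ends 125 bases before Chrnb1 starts on the same strand, had an FPKM of 7.92 in the Myod1 library and between 0.036 and 0.463 in the other libraries. Whether reads run on from Fgf11 into Chrnb1 was not tested.

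Chrne (ENSMUSG00000014609, chromosome 11, 70614883 to 70619216, minus strand), the epsilon subunit of the adult receptor, had 0 reads in all 5 libraries. In the Myod1 library this count allows an FPKM of up to 0.113, which is 0.029% of the level of Chrng. Of the reads assigned to Chrng or Chrne there, 100% belonged to Chrng, with an exact binomial interval from 99.99%. The opposite-strand gene 4930544D05Rik, within Chrne, shares none of its exonic bases and also had 0 reads in each library. The neighbouring Mink1, 400 bases away, had an FPKM of 14.9 in the Myod1 library and 18.6 in the control.

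Within the Myod1 library the order of the subunits per length was Chrng, Chrnd, Chrna1, Chrnb1 and Chrne. Chrng was 3.78 times the level of Chrnd, 5.15 times that of Chrna1 and 6.55 times that of Chrnb1, and Chrnd was 1.36 times the level of Chrna1. Their counting intervals do not overlap. Annotated length and the transcripts used per gene also set FPKM, so these ratios between genes carry an error that the intervals leave out.

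Among the genes of the scaffold and of agrin signalling, Rapsn (ENSMUSG00000002104, chromosome 2, 91035620 to 91045729) differed from the other members by its level in cells without added Myod1. Its FPKM was 143 (138 to 147) in the Myod1 library, 10.7 (9.62 to 11.8) in the Pparg library, 32.2 (30.2 to 34.3) in the expression control, 51.6 (49.3 to 54.1) in the Setdb1 library and 40.9 (38.6 to 43.2) in the knockdown control. No pair of these intervals overlaps. In the 2 controls it ranked 1759 and 1351 among the 12842 genes compared. The ratio to the control in the Myod1 library was 4.44 (4.13 to 4.77), the log2 ratio 2.12. The opposite-strand gene Gm13778 shares 4 of the 1802 exonic bases of Rapsn and had an FPKM between 0.078 and 1.85.

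Dok7 (ENSMUSG00000044716, chromosome 5, 35056766 to 35087839), the adaptor of MuSK, had an FPKM of 83.3 (81.2 to 85.5) in the Myod1 library, 0.879 (0.698 to 1.11) in the Pparg library, 1.93 (1.63 to 2.29) in the expression control, 1.97 (1.69 to 2.31) in the Setdb1 library and 0.671 (0.506 to 0.890) in the knockdown control. The Myod1 library stands apart, and the 2 controls differ from each other 2.88-fold. Against its control the ratio was 43.1 (36.3 to 51.5), a log2 ratio of 4.85.

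Musk (ENSMUSG00000057280, chromosome 4, 58285960 to 58374303), the receptor tyrosine kinase that starts receptor clustering, had an FPKM of 2.32 (1.97 to 2.75) from 138 reads in the Myod1 library and 0 reads in the other 4 libraries. It was at least 47.8-fold higher than the control, with a log2 ratio of 1.73. Its level was the lowest of the members with reads in that library.

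Lrp4 (ENSMUSG00000027253, chromosome 2, 91457511 to 91513779), the agrin receptor, had an FPKM of 3.12 (2.87 to 3.41) in the Myod1 library, 1.52 (1.36 to 1.71) in the Pparg library, 2.05 (1.84 to 2.27) in the expression control, 0.468 (0.381 to 0.575) in the Setdb1 library and 1.16 (1.01 to 1.33) in the knockdown control. The ratio of 1.53 in the Myod1 library (1.33 to 1.75) is smaller than the 1.77-fold difference between the 2 controls. With the knockdown control as reference the log2 ratio was 0.94 in place of 0.44. The intervals of Lrp4 and Musk in the Myod1 library do not overlap, and the components of agrin signalling there stood in the order Dok7, Lrp4 and Musk per length.

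Colq (ENSMUSG00000057606, chromosome 14, 31523082 to 31591343), the collagen tail that anchors acetylcholinesterase in the synaptic cleft, had an FPKM of 8.75 (8.03 to 9.53) in the Myod1 library, 0.562 (0.415 to 0.763) in the Pparg library from 41 reads, 0.032 from 2 reads in the expression control and 0 in both libraries of the knockdown experiment. The ratio in the Myod1 library was 272 with an interval from 74.8 to 2249. The same-strand gene Gm49387, which had 0 reads in each library, shares 199 of the 3803 exonic bases of Colq (5.23%), and how reads shared by overlapping genes were counted is not given in the sources used here. Ache, the acetylcholinesterase that Colq anchors, had an FPKM of 5.23 in the Myod1 library and 3.54 in the control, a ratio of 1.48 (1.26 to 1.74), while in the knockdown control it had 1.60, against which its log2 ratio of 1.26 would be called.

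**Figure D3:**
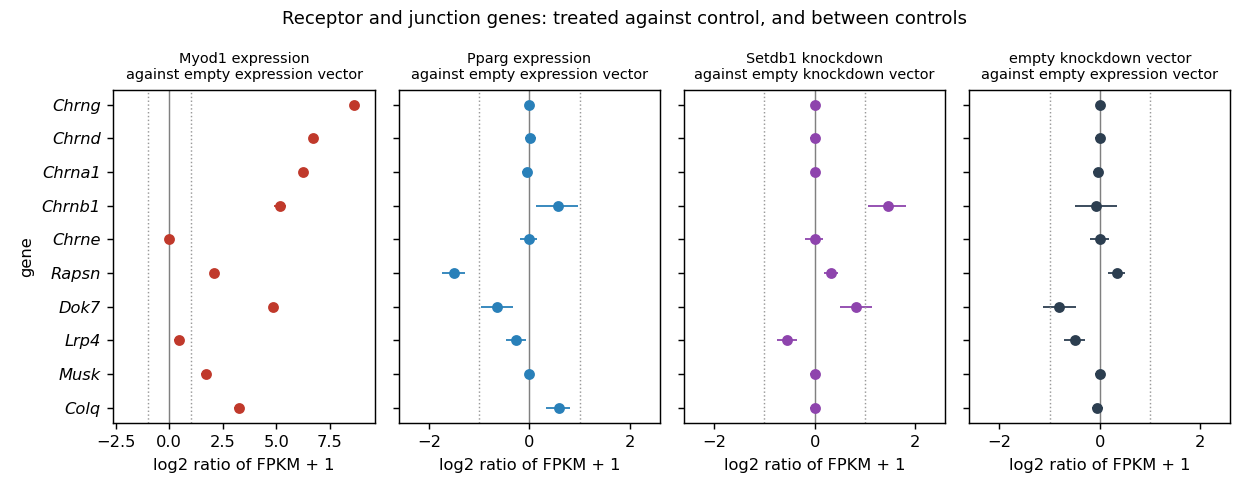
Log2 ratio of FPKM + 1 of each member in the 3 comparisons with the control and between the 2 controls; dotted lines mark 2-fold, bars run from the lower Wilson bound of one library against the upper bound of the other to the reverse, and the first panel has a wider axis. In the Myod1 library 8 members lie beyond 2-fold, in the Pparg library Rapsn alone, in the Setdb1 library Chrnb1 alone, and between the controls none.

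Pparg expression was compared with the same empty expression vector control. Of the 10 members 1, Rapsn, was at least 2-fold lower and none was higher, where 2.30% of genes compared were lower and 4.22% higher, 6.52% in all. Rapsn was 3.02-fold lower (2.67 to 3.42), a log2 ratio of -1.51 that placed it at rank 70 from the lowest, and against the other control the log2 ratio was -1.84. Melanocyte markers moved with it in that library, where 7 of 8 were at least 2-fold lower, with a summed FPKM of 2125 against 7546 in the control. In the Myod1 library, where Rapsn was higher, 5 of 8 were at least 2-fold lower, as were 7.55% of all genes compared. Their summed FPKM there was 3132. The part of melanocyte genes in these differences was not tested.

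On the log2(FPKM + 1) scale the other members stayed within 2-fold in the Pparg library, where low levels are damped by the pseudocount. Chrnb1 had 72 reads against 28, a ratio of 2.19 (1.40 to 3.52) with a log2 ratio of 0.57 after the pseudocount. Colq had 41 reads against 2, a ratio of 17.5 (4.54 to 149) with a log2 ratio of 0.60. Dok7 was at a log2 ratio of -0.64, but at 0.17 against the other control, so its direction depends on the control. Lrp4 likewise went from -0.27 to 0.23. Chrna1, Chrnd, Chrng, Chrne and Musk had at most 2 reads in either library. With a pseudocount of 0.1 in place of 1, Chrnb1 and Colq would be called higher and Dok7 lower beside Rapsn.

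Setdb1 knockdown was compared with the knockdown control. Of the 10 members 1, Chrnb1, was at least 2-fold higher and none was lower, where 9.34% of genes compared were higher and 10.3% lower, 19.7% in all, so the count of members was near the background. Chrnb1 had 159 reads against 25, a ratio of 5.75 (3.75 to 9.15) and a log2 ratio of 1.47. The Setdb1 library had 0 reads for Chrna1, Chrnd, Chrng, Chrne, Musk and Colq, as did their control. Zbtb4, which lies 13 bases from Chrnb1 on the opposite strand, had an FPKM of 2.14 in the Setdb1 library and 0.530 in the control. Whether the counting used strand is not given in the sources used here, so reads of the 2 genes near their shared end may not be told apart.

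Of the other members in that comparison, Dok7 was at a log2 ratio of 0.83, but at 0.02 against the other control, and the controls themselves differed by -0.81. Lrp4 was at -0.55, a ratio of 2.47-fold lower (1.92 to 3.20), and at -1.05 against the other control, where it would be called. Rapsn was at 0.33, the size of the 0.34 between the controls.

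Between the 2 controls, which differ in vector and day, none of the 10 members differed at least 2-fold on the log2(FPKM + 1) scale, where 2.67% of genes compared did, 1.23% higher and 1.44% lower. The largest differences in size were those of Dok7 (-0.81), Lrp4 (-0.50) and Rapsn (0.34), each as the empty knockdown vector against the empty expression vector.

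The rest of the acetylcholine receptor genes gave a contrast within the gene family. The 11 neuronal nicotinic subunits, most of which form receptors of neurons, had a summed FPKM between 2.01 and 2.69 in the 5 libraries. The 5 muscle-type subunits had 633 in the Myod1 library and between 0.591 and 3.39 in the others. Of the neuronal subunits 2, Chrnb2 and Chrnb4, could be compared, and neither was called in any of the comparisons. Chrnb4 had an FPKM of 0.495 in the Myod1 library and 1.04 in the control, and Chrnb2 had 1.04 and 0.935. Chrna4, with 40 reads against 3, and Chrna10, with 24 reads against 0 (at least 8.31-fold), had more reads in the Myod1 library, but at an FPKM of 0.507 and 0.581 they stayed below the level for a call. None of the 5 muscarinic receptors reached an FPKM of 1 in any library.

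**Figure D4:**
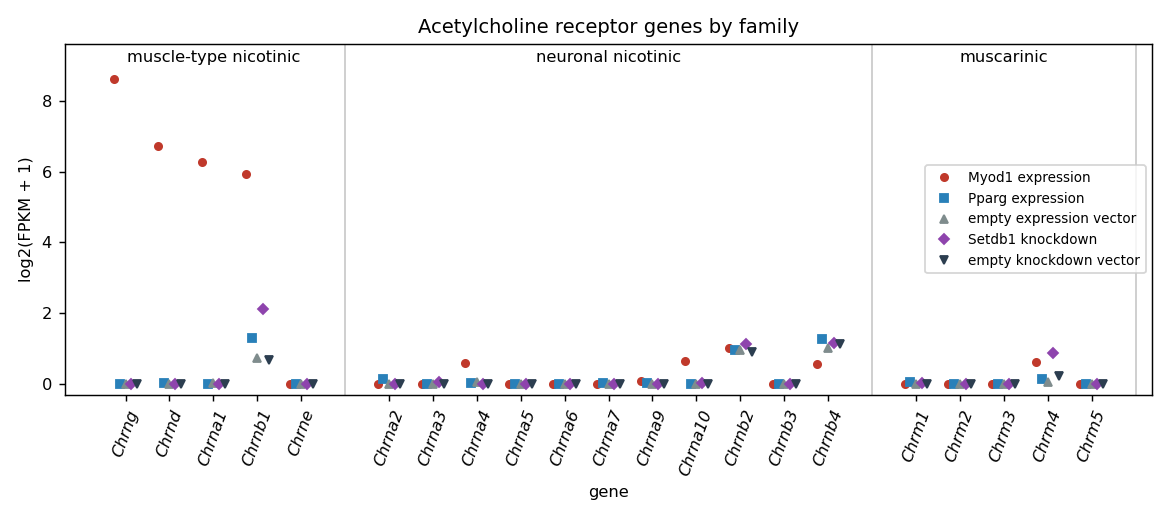
Level as log2(FPKM + 1) of the 5 muscle-type nicotinic subunits, 11 neuronal nicotinic subunits and 5 muscarinic receptors in the 5 libraries, 1 symbol per library. The high values are those of Chrng, Chrnd, Chrna1 and Chrnb1 in the Myod1 library, whereas no neuronal or muscarinic gene exceeds an FPKM of 1.40.

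Partners of agrin and of neuregulin, a further nerve signal, were mostly expressed in every library. Of 21 genes 18 were compared, and in the Myod1 library 5 were at least 2-fold higher and 2 lower, where 14.0% of all genes compared were higher and 7.55% lower (9.64% and 14.8% with libraries scaled to equal summed FPKM). Against the other control the same 5 were higher and none was lower. Etv5, an Ets factor known to bind N-boxes, had an FPKM of 19.5 in the Myod1 library and 0.463 in the control, and Erbb3 and Erbb2, the neuregulin receptors, had 36.6 against 11.1 and 16.3 against 5.97. The other 2 higher genes were Dvl1 and Fyn. Etv5 also differed between the controls, with 3.37 in the knockdown control, so the size of its log2 ratio, 3.81, depends on the control. Agrn itself had 8.45 against 24.5, a log2 ratio of -1.43, but -0.62 against the other control, and Apc had -1.15 and -0.96, so both calls end there. Agrn, the ligand, and Lrp4, its receptor, thus had reads in all libraries, while their kinase Musk had reads in the Myod1 library only.

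In the Pparg library 4.22% of all genes compared were higher and 2.30% lower. The called partners there were Etv5 (2.17) and Erbb3 (-1.51), 1 in each direction of the 18. Neither was called against the other control, where the values were 0.59 and -0.89. In the Setdb1 library Erbb3 was higher (1.35), and Etv5 (-1.84), Rac1 (-1.29), Crkl (-1.14) and Apc (-1.01) were lower on the log2 scale, 5 of 18 where 19.7% of all genes compared were called. Against the other control 1 of them, Apc, was called, and Erbb3 was at 0.73, Etv5 at -0.26, Rac1 at -0.93 and Crkl at -0.53. The median over all 21 partners was 0.00 in the Myod1 library, -0.11 in the Pparg library and -0.02 in the Setdb1 library.

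Of 11 genes of the cleft and basal lamina 6 were compared, and in the Myod1 library Dag1, the dystroglycan precursor, and Lama5 were at least 2-fold higher while Lama4 was lower. The log2 ratio of Lama5 was 1.13 there, and it differed by -1.06 between the controls. In the Pparg library Lamb2 was the 1 called gene, lower at 17.8 against 36.6 FPKM, and in the Setdb1 library there was none. Against the other control, Lamb2 was at a log2 ratio of -0.07, and the called genes were Lama5 (1.75), Hspg2 (1.30) and Ache (1.10), all higher, in the Pparg library and Hspg2 (-1.58) and Ache (-1.38), both lower, in the Setdb1 library. Of 11 genes of the postsynaptic cytoskeleton, all compared, those higher in the Myod1 library included Plec (1.71), Nes (1.39) and Dtna (1.36), while Utrn, the dystrophin relative of the synaptic membrane, was lower (-1.07), though not against the other control (-0.90). In the Setdb1 library Utrn (-1.40), Macf1 (-1.37), Phldb2 (-1.27) and Syne1 (-1.21) were lower. In the Pparg library Sntb1 was the 1 called gene (1.51).

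None of the 7 compared genes of receptor assembly and glycosylation was called in any comparison. Rer1 and Unc50, which act on receptor assembly in the early secretory pathway, had FPKM of 58.6 and 29.6 in the Myod1 library and 49.5 and 21.9 in the control. Ric3 and Tmem35a, chaperones of neuronal receptors, had no reads in any library.

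Genes that muscle is known to raise on loss of its nerve, as it does the receptor subunits, were compared as a further list. Of 12 genes 9 were compared, and 8 were at least 2-fold higher in the Myod1 library, with none lower. The shares over all genes compared were 14.0% higher and 7.55% lower. Beside Myog, which is also in the list of myogenic regulators, the 8 included Scn4a, the sodium channel of adult muscle, with 211 reads against 0 (at least 73.1-fold). Ncam1 had an FPKM of 17.4 against 5.07, and Gadd45a had 32.3 against 6.98. Gadd45a was also higher in the Setdb1 library, at 28.6 against 3.59, and Fbxo32 in the Pparg library, at 3.61 against 0.816. Each was the 1 called gene of the 9 there, where 19.7% and 6.52% of all genes compared were called. Against the other control 2 genes of this list were called in the Pparg library, with Gadd45a (1.33) added. In the Setdb1 library 3 were called, with Fbxo32 (1.06) and Ncam1 (-1.10) added. Of all genes compared 5.52% were higher and 2.41% lower against it in the Pparg library, and 8.72% and 11.0% in the Setdb1 library. The median log2 ratio over all 12 was 1.26 in the Myod1 library and 0.02 in the Setdb1 library.

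Of the 9 myogenic regulators 6 of the 7 compared were at least 2-fold higher in the Myod1 library, as were 14.0% of all genes compared. None was called in the Pparg or Setdb1 library, where 6.52% and 19.7% of all genes compared were called. Myog, the factor of terminal differentiation, reached an FPKM of 948, Mef2d 120 and Mef2a 18.7. Myf6, the factor of mature fibres, had 3 reads in the Myod1 library and 0 in the others, and Myf5 had 0 in all. For Myod1 itself, values per gene do not separate vector from endogenous transcripts.

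**Figure D5:**
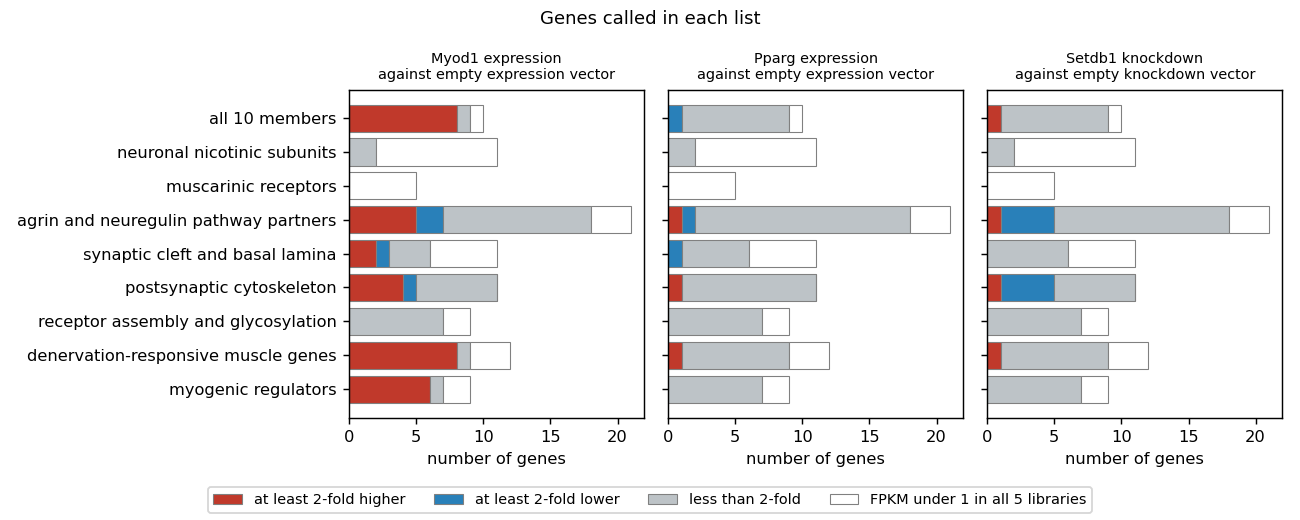
Number of genes at least 2-fold higher, at least 2-fold lower, changed by less, or under an FPKM of 1 in all 5 libraries, for the 10 members and 8 further gene lists in the 3 comparisons. Red bars for the members, the denervation-responsive genes and the myogenic regulators are long in the Myod1 library (8, 8 and 6 genes) and at most 1 gene long in the other comparisons.

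The genes whose pattern was most like a member were taken by the smallest Euclidean distance of log2(FPKM + 1) over the 5 libraries, 3 for each of the 9 members compared. Nearest to Chrng were Klhl41 (distance 0.17), Mymx (0.26) and Mylf-ps (0.32), nearest to Chrnd were Klhl40 (0.12), Ablim3 (0.13) and Gm25436 (0.16), and nearest to Chrna1 were Cav3 (0.18), Trim55 (0.22) and Lmod3 (0.23). Nearest to Colq were Gm3924 (0.18), Fbp2 (0.26) and Fgf11 (0.29), the last being the upstream neighbour of Chrnb1. Nearest to Musk were Mir6338, Gm49540 and Gm48584, each at an FPKM between 2.29 and 2.33 in the Myod1 library and 0 elsewhere. Chrnb1 had Sh3bgr (0.69), Neurl1a (0.89) and Dbndd1 (1.09), and Lrp4 had Nars2 (0.38), S100a16 (0.44) and Gm8971 (0.45).

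The nearest to Rapsn were Efhd2 (1.24), Gm12751 (1.39) and Cfl2 (1.39), and the nearest to Dok7 were Dbndd1 (0.80), Cacnb1 (1.30) and Vash2 (1.35).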

How the data were processed

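RNA of 5 B16F10 cultures was sequenced, 1 library per group. The authors deposited 1 table of FPKM values per gene with symbols, positions and lengths. CASAVA, HISAT2, featureCounts 1.5.0-p3 and the build GRCm38 are named, per the submitters' processing notes. Settings for strand and shared reads are not given in the sources used here. Symbols were taken from the table, whose positions and lengths equal GENCODE M21 for all 10 members.

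FPKM times length was in each library a whole multiple of 1 step for 100% of values above 0 (tolerance 0.01 reads), which gave the reads. The library size used for the FPKM was between 0.859 and 1.10 times those reads, so the values were already scaled between libraries. Genes that reached an FPKM of 1 in any library were compared by log2(FPKM + 1), and a call needed 2-fold. Counts of 0 were given a floor of 3 reads in that library. Ratios of reads have exact conditional binomial intervals at 95%. A test on simulated data checked the read recovery and the calls.

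Members and gene lists were chosen with earlier results of these data known. Named genes are the members, genes of the lists, the 3 genes nearest in pattern to each member, and neighbours of members on the chromosome. The neighbours that do not overlap a member were added after their values were seen. RefSeq promoter windows were found for 6 members. Python 3.11.15, pandas 2.3.3, scipy 1.17.1 and matplotlib 3.10.9 were used. Alternatives were another pseudocount, filter, limit, scaling and control. Some genes of the lists are not reported here.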

Additional observations from a re-analysis of the deposited data

How the results depend on the processing

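Across the 9 alternatives the 8 members called with Myod1 expression numbered 7 or 8, and the 1 lost was Musk, with a 4-fold limit or a filter on the mean FPKM. The median of the members there was 4.04 and moved to 5.71 with a pseudocount of 0.1, 3.71 with division by the column sum and 4.27 against the other control. With a pseudocount of 0.1 the members called were 4 with Pparg expression, 3 with Setdb1 knockdown (Chrnb1 and Dok7 higher, Lrp4 lower) and 1 between the controls (Dok7 lower). With a 4-fold limit they were 0 with Pparg expression and 0 with Setdb1 knockdown. Against the other control they were 2 with Setdb1 knockdown (Chrnb1 higher, Lrp4 lower). Of 350 log2 ratios of single members under alternatives, 306 stayed within the counting interval of the main value, 44 moved outside it, and none that was called changed sign.

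Division by the column sum moved the median of all genes by -0.28 with Myod1 expression and the share of higher genes among those called from 65.0% to 39.4%, the 75th percentile (median shift -0.12) to 52.7% and scaling by recovered reads (-0.12) to 53.3%. Lrp4 stayed higher there, at 0.15 under the column sum. With scaling by recovered reads (median shift 0.10) the share with Pparg expression moved from 64.8% to 76.4%. No paired analysis was possible because each group has 1 library. Of 36 list counts 28 were within 1.5 times with the other control. Few reads limit the ratios of Chrnb1 (28 and 25 in the controls) and Colq (2 in the expression control).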
